A study of Mus musculus with 217 samples.

Results

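The genes described here are 37 genes of the lysosome and of autophagy, out of 54532 genes in the count tables. The rule behind the list uses the function of each product and no measured value, although the list was drawn up with earlier results of these data known. By role, 4 encode lysosomal membrane proteins (*Lamp1*, *Lamp2*, *Npc1*, *Mcoln1*), 7 lysosomal proteases (*Ctsa*, *Ctsb*, *Ctsd*, *Ctsf*, *Ctsl*, *Ctsz*, *Tpp1*) and 7 glycosidases (*Gaa*, *Galc*, *Gla*, *Glb1*, *Gusb*, *Hexa*, *Naglu*). A further 4 encode lipid-handling or accessory proteins of the lysosome (*Npc2*, *Psap*, *Grn*, *Ppt1*) and 1 the transcription factor *Tfeb*. On the autophagy side, 4 genes act in initiation (*Ulk1*, *Ulk2*, *Becn1*, *Atg9a*), 3 in the conjugation machinery (*Atg5*, *Atg7*, *Atg16l1*), 4 form the Atg8 family (*Map1lc3a*, *Map1lc3b*, *Gabarap*, *Gabarapl1*) and 3 encode cargo receptors or adaptors (*Sqstm1*, *Optn*, *Wdfy3*). All 37 had a count in every tissue and age, and all were tested in every comparison.

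Lysosomes are acidic organelles whose hydrolases break down proteins, glycans, lipids and glycogen. In macroautophagy, the Ulk kinases start a membrane that is extended by the Atg conjugation enzymes, is coated with lipid-linked Atg8 proteins, encloses cargo held by receptors such as p62 (the product of *Sqstm1*) and then fuses with the lysosome. Many lysosomal genes carry an E-box sequence near their start site that is bound by TFEB and its relatives, and autophagy is a known route for clearing aggregated huntingtin.

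The mice carried a mutant *Htt* allele of the Q140 line, with an expanded CAG repeat and *Lac* operators at its transcription start (genotype label Hdh(LacO-140Q/+):beta-actin-LacIR tg, called LacQ140 below), and all groups, WT included, carried the *Lac* repressor transgene LacIR, which is driven ubiquitously by the beta-actin promoter, on C57BL/6. The repressor holds the mutant allele down, and IPTG in the drinking water or chow lifts that repression. The groups were WT without IPTG, WT + IPTG (IPTG from embryonic day 5), LacQ140 (IPTG from embryonic day 5 throughout, mutant allele expressed), LacQ140_A (never given IPTG), LacQ140_2M (IPTG withdrawn at 2 months of age) and, at 12 months only, LacQ140_8M (IPTG withdrawn at 8 months). WT without IPTG is labelled MOCK, and LacQ140_A carries no such label. RNA-seq libraries of 107 striata and 110 cortices were made from mice of 6 and 12 months, with 10 mice (5 females and 5 males) in each group, except 9 in the 12-month striatum of WT, LacQ140 and LacQ140_8M (4 females and 5 males). Each mouse gave both tissues where both were present. The repressor lowers the mutant allele only in part, and the wild-type allele is left intact, so LacQ140_A is a model of partial lowering from conception, not of an absent mutant allele.

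Total counts ranged from 33292057 to 68038831 per library. *Ppp1r1b*, a marker of spiny projection neurons, had a median of 2207 TMM-scaled CPM (counts scaled to library size) in 6-month and 2034 in 12-month striatum, against 144 and 88.7 in cortex, while the cortical marker *Slc17a7* had medians of 1053 and 639 CPM in cortex and 9.41 and 12.3 in striatum. No library went against its labelled sex (0 of 217). *Htt* in striatum had medians of 113 CPM in WT, 112 in WT + IPTG, 99.6 in LacQ140, 87.9 in LacQ140_A and 91.4 in LacQ140_2M at 6 months. At 12 months these medians were 137, 149, 113, 90.95 and 101, with 112 in LacQ140_8M. The counts do not separate the mutant from the wild-type allele. The 12-month cortex libraries stood apart from all others. Their *Htt* levels lay between 11.7 and 42.01 CPM, against 61.1 to 163 elsewhere, and the slope of log2 level on log2 transcript length across genes had a median of -0.22, against 0.26 in 6-month striatum, 0.36 in 12-month striatum and 0.26 in 6-month cortex. Libraries with summed markers of choroid plexus, pituitary or, in striatum, cortical excitatory neurons over 5 times the median library numbered 3 of 50 in 6-month striatum, 4 of 57 in 12-month striatum, 7 of 50 in 6-month cortex and 19 of 60 in 12-month cortex.

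The promoters of the members were searched for the E-box CACGTG and its longer form TCACGTGA, both of which read the same on either strand, in the 250 bases before and 50 bases after each start site given by RefSeq (GRCm38.p6). Of the 37 members, 31 had a promoter in that table. CACGTG was present in 12 of the 31 (38.7%), against 8.09% of the 27025 genes in the table, and TCACGTGA in 4 of the 31 (12.9%; *Ctsa*, *Ctsd*, *Gla* and *Mcoln1*), against 1.12%. Every TCACGTGA also counts as a CACGTG. Among the 9 members that were higher in LacQ140 striatum at either age (below), 6 held CACGTG, and the 6 are printed here because they are the members in which the motif and a measured difference met. Among the 5 that were lower, none of the 4 with a promoter in the table held it (0 of 4), and among the others it was present in 6 of 18. The members had been picked as lysosomal genes, for which this motif is known, and no test was made of these shares. Each line gives up to 40 bases on either side of the motif, 5′ to 3′ on the strand of the gene, with every match in capitals.
Gaa, chr11:119267783-119267868, plus strand: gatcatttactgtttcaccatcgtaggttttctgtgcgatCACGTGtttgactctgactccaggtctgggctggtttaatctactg
Naglu, chr11:101069981-101070066, plus strand: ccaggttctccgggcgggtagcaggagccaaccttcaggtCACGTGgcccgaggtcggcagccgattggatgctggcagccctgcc
Glb1, chr9:114400990-114401075, plus strand: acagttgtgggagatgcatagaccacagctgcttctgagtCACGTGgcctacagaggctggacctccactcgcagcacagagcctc
Ctsl, chr13:64370711-64370770, minus strand: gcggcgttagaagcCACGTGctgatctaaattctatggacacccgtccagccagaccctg
Mcoln1, chr8:3500433-3500520, plus strand: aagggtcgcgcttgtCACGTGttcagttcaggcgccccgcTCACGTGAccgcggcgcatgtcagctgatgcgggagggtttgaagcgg
Atg7, chr6:114670924-114671009, plus strand: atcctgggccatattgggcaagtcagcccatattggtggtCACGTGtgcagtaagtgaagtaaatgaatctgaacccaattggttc
The motif began 140 bases before the start in *Gaa*, 73 in *Naglu*, 48 in *Glb1*, 46 in *Mcoln1* (for TCACGTGA) and 132 in *Atg7*, and lay near the outer edge of the window in *Ctsl*. In all 6 the RefSeq start lay inside the gene span of the GENCODE annotation, by 2 bases in *Glb1*, 62 in *Mcoln1*, 76 in *Gaa*, 82 in *Naglu*, 370 in *Ctsl* and 27999 in *Atg7*. The match itself (TCACGTGA for *Mcoln1*) lay inside that span in *Naglu*, *Ctsl*, *Mcoln1* and *Atg7*. *Mcoln1* holds the longer form TCACGTGA and, further upstream, a separate CACGTG, and the 5 others hold CACGTG once each.

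The members spanned a wide range of levels. Per kilobase of transcript, the highest in 6-month WT striatum was *Gabarapl1*, an Atg8 protein, at 914 ± 59.9 CPM per kb (SD, n = 10), followed by *Psap*, the precursor of the saposins that help hydrolases reach sphingolipids, at 622 ± 41.03. The protease *Ctsd* (251 ± 16.5), the receptor *Sqstm1* (220 ± 12.2) and the membrane protein *Lamp1* (195 ± 11.8) came next, and each of these 3 overlapped in range with the gene after it in the order. At the lower end were *Tfeb* at 4.67 ± 0.647, *Gla* at 4.16 ± 0.403 and *Naglu* at 3.47 ± 0.439 CPM per kb, again with overlapping ranges. Neighbours in the order had separate ranges only after *Gabarapl1*, *Psap*, *Ctsb*, *Ppt1* and *Becn1*. In 6-month WT cortex the same 3 genes led, *Gabarapl1* at 793, *Psap* at 595 and *Ctsd* at 229.1 CPM per kb.

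**Figure D1:**
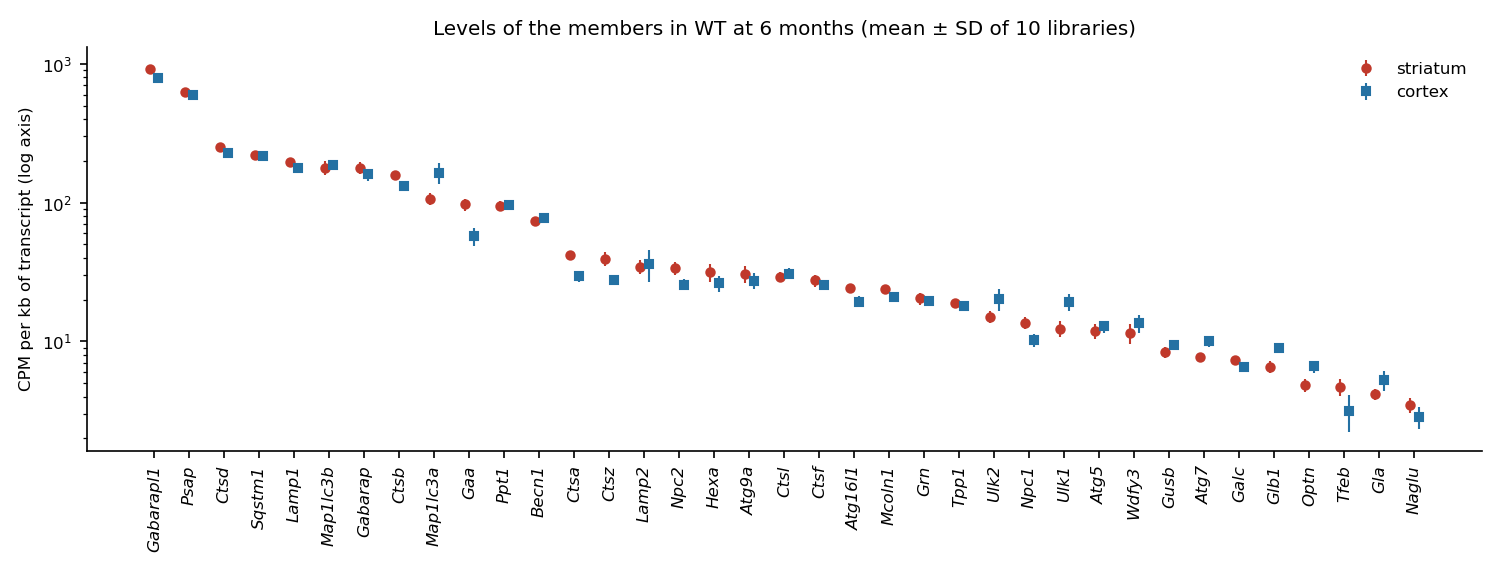
Mean level of each of the 37 members in WT mice at 6 months, in CPM per kb of transcript on a log axis, ordered by striatum, with SD over 10 libraries for striatum (circles) and cortex (squares). Levels run from 914 CPM per kb for Gabarapl1 to 3.47 for Naglu in striatum, and the tissues lie close together for most members, with Gaa higher in striatum and Map1lc3a and Ulk1 higher in cortex.

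The first comparison asked how expression of the mutant allele changes these genes, with LacQ140 set against WT + IPTG so that both groups had IPTG from embryonic day 5. At 6 months in the striatum, 7 of 37 members passed an adjusted p of 0.05 (edgeR quasi-likelihood test, Benjamini-Hochberg over all 35808 genes tested), 5 of them higher and 2 lower, and each by less than 20%. No member reached both that threshold and a change of at least 20%, the rule for calling a gene (0 of 37; 14 of 37 had an unadjusted p under 0.05 and DESeq2 also called 0), while 7.93% of all genes tested were called. The share of members that passed, 18.9%, compares with 24% of the 10247 genes expressed at or above the level of the lowest member. The median log2 fold change was 0.01 over the members and -0.01 over those genes.

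*Sqstm1*, the receptor that links ubiquitinated cargo to Atg8 proteins (chr11:50199366-50210827, GRCm38, ENSMUSG00000015837), had the smallest adjusted p. It ranged from 403 to 504 CPM in WT + IPTG, with a median of 443, and from 479 to 589 CPM in LacQ140, with a median of 504. The ranges overlapped, and 10 of 10 LacQ140 libraries lay above the WT + IPTG median. The log2 fold change was 0.20 (SE 0.04, adjusted p = 0.000309). An opposite-strand gene, *Mrnip*, overlaps *Sqstm1*, and whether counting used strand is not given in the sources used here.

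The glycosidases moved in both directions. *Gaa*, which breaks down lysosomal glycogen (chr11:119267887-119285454, ENSMUSG00000025579), ranged from 241 to 355 CPM with a median of 290 in WT + IPTG and from 316 to 392.4 with a median of 350 in LacQ140, which is 0.24 higher on the log2 scale (SE 0.06, adjusted p = 0.00546). The *Gaa* median of WT without IPTG, given further below, lay nearer to that of LacQ140 than to that of WT + IPTG. *Naglu*, which acts on heparan sulfate (chr11:101070012-101077672, ENSMUSG00000001751), ranged from 7.50 to 9.97 CPM with a median of 8.88 in WT + IPTG and from 9.73 to 11.2 with a median of 10.3 in LacQ140 (log2 fold change 0.24, SE 0.07, adjusted p = 0.0157). For both genes all 10 LacQ140 libraries lay above the WT + IPTG median, with some overlap of the ranges. In the other direction, *Hexa*, the alpha subunit of the hexosaminidase that degrades ganglioside GM2 (chr9:59539540-59565109, ENSMUSG00000025232), ranged from 54.3 to 63.6 CPM with a median of 61.3 in WT + IPTG and from 45.01 to 57.4 with a median of 53.4 in LacQ140. On the log2 scale *Hexa* stood at -0.22 (SE 0.06, adjusted p = 0.0148), and all 10 LacQ140 libraries were below the WT + IPTG median. *Galc*, *Gla*, *Glb1* and *Gusb* did not pass, with *Glb1* at 0.16 (SE 0.06, adjusted p = 0.1). *Glb1* passed when genes of low count were removed before the test with filterByExpr (adjusted p = 0.0466).

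Of the autophagy initiation genes, *Ulk1*, the kinase at the head of the pathway (chr5:110784488-110810097, ENSMUSG00000029512), passed. Its levels were 46.8 to 59.2 CPM with a median of 52.6 in WT + IPTG and 49.6 to 67.8 with a median of 61.6 in LacQ140, 0.19 higher on the log2 scale (SE 0.06, adjusted p = 0.0322), and 9 of 10 LacQ140 libraries lay above the WT + IPTG median. *Ulk1* did not keep that threshold without the libraries high in markers of adjacent tissue (adjusted p = 0.0733), nor in 8 of 20 fits that left out 1 library (up to 0.0721). *Psap* and *Tpp1* also passed and are named here after their values were seen. *Psap* was 0.12 higher (SE 0.04, adjusted p = 0.0444), but missed the threshold with the replicate block (0.0519), with only the groups compared (0.0929) and in 13 of 20 fits that left out 1 library (up to 0.122). *Tpp1*, a peptidase that trims tripeptides from protein ends, stood at -0.17 (SE 0.05, adjusted p = 0.00702), with 52.2 to 66.99 CPM in LacQ140 and 65.2 to 76.5 in WT + IPTG. The lysosomal membrane proteins, the Atg8 family, the conjugation machinery and *Tfeb* held no member that passed. *Lamp1* stood at -0.11 (adjusted p = 0.0573) and passed with filterByExpr, which removes genes of low count before the test, with DESeq2, with its size factors and with the slope of level on transcript length as a covariate (adjusted p from 0.0172 to 0.044). With that covariate *Map1lc3a* (0.10, adjusted p = 0.0313) and *Npc2* (-0.10, adjusted p = 0.0229) passed as well. *Lamp2* stood at -0.16 (adjusted p = 0.0855) and *Tfeb* at 0.01 (SE 0.10).

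**Figure D2:**
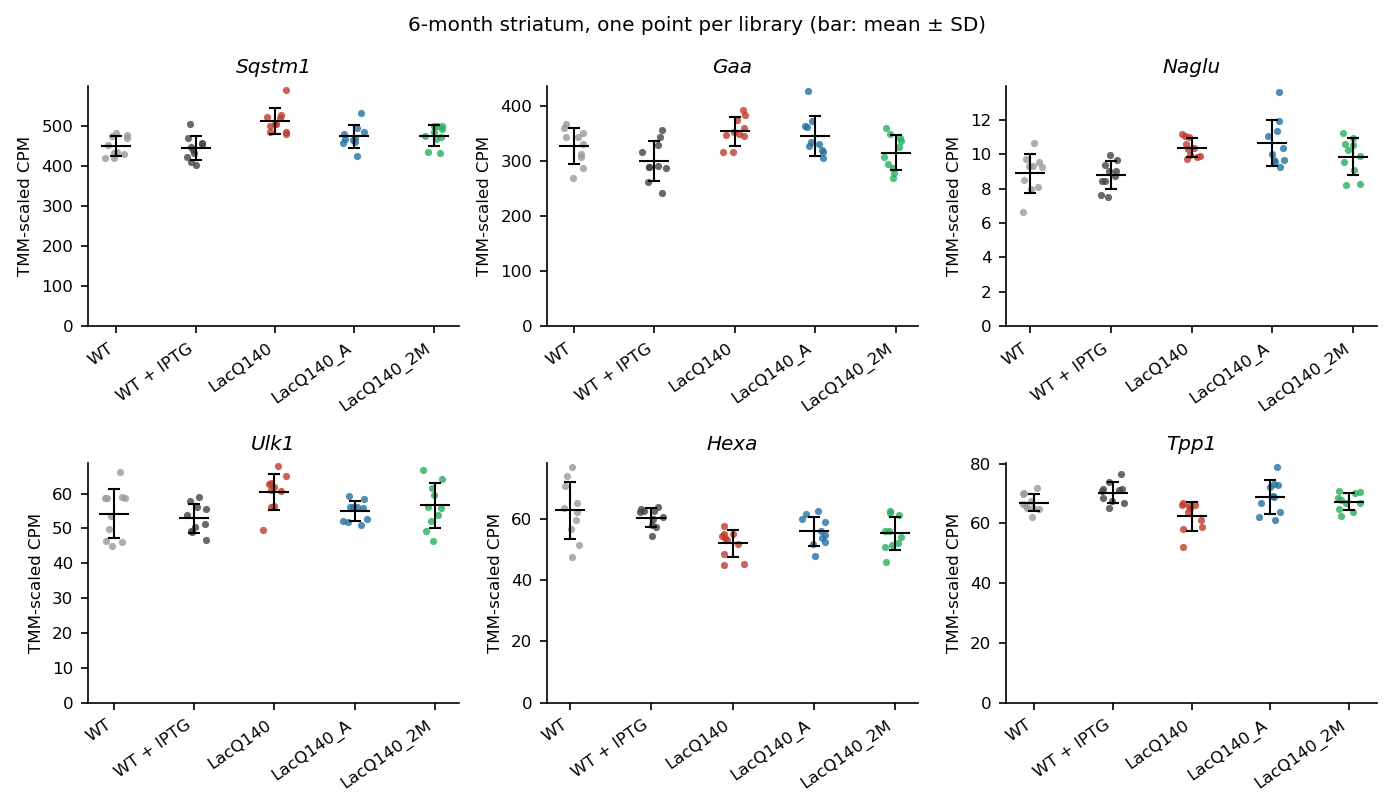
TMM-scaled CPM of Sqstm1, Gaa, Naglu, Ulk1, Hexa and Tpp1 in each 6-month striatum library, by group, with the mean and SD of 10 libraries; axes start at 0. LacQ140 libraries sit higher than WT + IPTG in the first 4 panels (Sqstm1 479 to 589 against 403 to 504 CPM) and lower in Hexa and Tpp1, with overlapping ranges in every panel.

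At 12 months in the striatum, 11 of 37 members passed (29.7%), 7 higher and 4 lower, against 29.5% of the 9961 genes at or above the lowest member's level. Again none was called (0 of 37; 16 had an unadjusted p under 0.05, and DESeq2 also called 0), against 9.44% of all 35386 genes tested. The median log2 fold change over the members was 0.05, against 0.00 over the genes at their level.

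*Atg7*, the activating enzyme of both autophagy conjugation systems (chr6:114643097-114860614, ENSMUSG00000030314), showed the largest difference. It ranged from 18.8 to 22.7 CPM with a median of 21.4 in WT + IPTG and from 22.7 to 27.8 with a median of 25.9 in LacQ140, and the ranges did not overlap. The log2 fold change was 0.26 (SE 0.05, adjusted p = 1.43e-05), just under the 20% bound at 1.199-fold. *Glb1*, the lysosomal beta-galactosidase (chr9:114401076-114474898, ENSMUSG00000045594), had 14.3 to 17.4 CPM with a median of 16.5 in WT + IPTG and 17.4 to 21.6 with a median of 18.5 in LacQ140, also with no overlap (log2 fold change 0.19, SE 0.05, adjusted p = 0.00549). *Glb1* shares its strand with the overlapping gene *Tmppe*, and *Atg7* with 3 predicted genes, so some reads of these loci are uncertain. Between 6 and 12 months the log2 fold change of *Atg7* went from 0.09 to 0.26, a difference of 0.17 (SE 0.07) that did not pass in the test of the difference itself (adjusted p = 0.297).

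*Ctsl*, the protease cathepsin L, ranged from 85.4 to 103 CPM with a median of 93.2 in WT + IPTG and from 95.6 to 115.5 with a median of 105 in LacQ140 (log2 fold change 0.18, SE 0.04, adjusted p = 0.00133), and all 9 LacQ140 libraries lay above the WT + IPTG median. Predicted genes with near-identical transcripts overlap *Ctsl*. *Gaa* was higher again, from 421 to 500 CPM with a median of 469 in WT + IPTG and from 440 to 612 with a median of 535 in LacQ140 (log2 fold change 0.16, SE 0.05, adjusted p = 0.0203), but with only 7 of 9 LacQ140 libraries above the WT + IPTG median. For *Sqstm1* the WT + IPTG libraries spanned 440 to 537 CPM with a median of 465, and the LacQ140 libraries 469 to 564 with a median of 528, all 9 of them above the WT + IPTG median (log2 fold change 0.15, SE 0.04, adjusted p = 0.00377).

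The other members that passed at 12 months are named after their values were seen. *Mcoln1*, a cation channel of the lysosomal membrane, was higher by 0.12 (SE 0.04, adjusted p = 0.0414), and *Psap* by 0.09 (SE 0.03, adjusted p = 0.0434). On the lower side, *Atg16l1*, the scaffold of the conjugation ligase, had 62.1 to 70.9 CPM in WT + IPTG and 54.9 to 62.1 in LacQ140, with no overlap (log2 fold change -0.14, SE 0.04, adjusted p = 0.0131). *Atg9a*, the membrane protein that seeds autophagosomes, stood at -0.13 (adjusted p = 0.0485), *Map1lc3b*, which encodes LC3B, at -0.12 (adjusted p = 0.0301) and *Tpp1* at -0.11 (adjusted p = 0.033). Within the 3 conjugation genes, then, *Atg7* rose and *Atg16l1* fell while *Atg5* did not pass. *Atg9a* and *Map1lc3b* overlap other annotated genes on both strands. *Gaa*, *Psap*, *Sqstm1* and *Tpp1* passed at both ages, and each kept its direction. *Naglu* and *Ulk1*, which passed at 6 months, stood at 0.08 (adjusted p = 0.67) and 0.09 (adjusted p = 0.349). *Ulk1* passed with the length slope, at 0.13 (adjusted p = 0.012). *Hexa*, which also passed at 6 months, stood at -0.15 (adjusted p = 0.0639). It passed with filterByExpr (0.0333), the length slope (0.0354) and DESeq2 (0.0411). Without the 4 libraries high in markers of adjacent tissue, 8 members passed in place of 11. *Npc1* was gained (0.15, adjusted p = 0.0334), and *Psap*, *Gaa*, *Tpp1* and *Mcoln1* were lost. With only the groups compared in the fit, 5 passed, and *Atg9a* and *Map1lc3b* were lost as well as those 4. With the slope of level on transcript length as a covariate, 15 passed (40.5%, against 37.7% of the genes at the members' level).

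**Figure D3:**
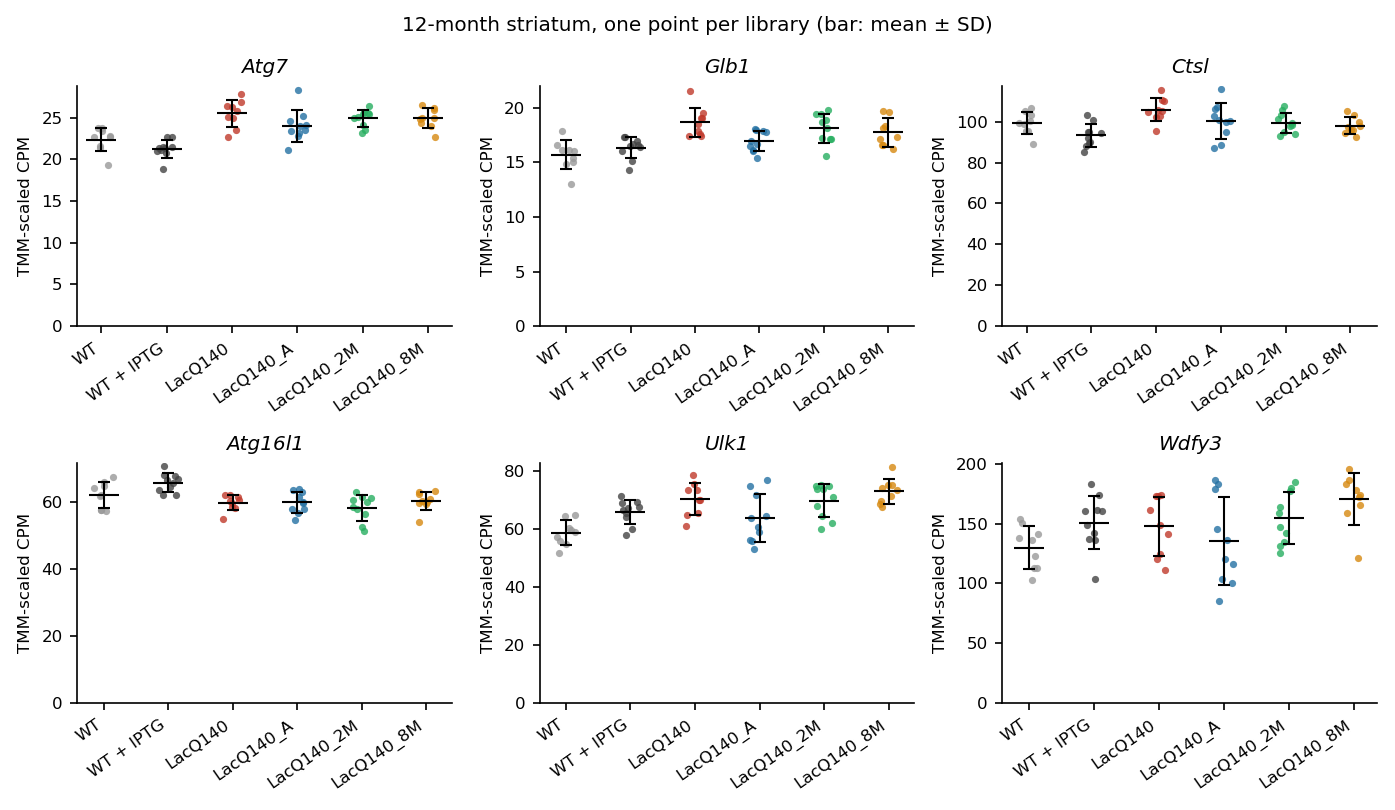
TMM-scaled CPM of Atg7, Glb1, Ctsl, Atg16l1, Ulk1 and Wdfy3 in each 12-month striatum library, by group, with mean and SD of 9 or 10 libraries; axes start at 0. LacQ140 (22.7 to 27.8 CPM) lies above WT + IPTG (18.8 to 22.7) for Atg7 without overlap, and the LacQ140_8M libraries are the highest group for Ulk1 (median 73.3) and Wdfy3 (median 174).

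Marker genes of several cell types moved in the same comparison. At 6 months the markers of spiny projection neurons that passed were all lower (8 of 10), as were those of oligodendrocytes (6 of 10), microglia (6 of 11), astrocytes (5 of 10), endothelial cells and pericytes (2 of 8), oligodendrocyte precursors (1 of 4), interneurons (1 of 5) and choroid plexus (2 of 6), while cortical excitatory neuron markers split 1 higher and 2 lower of 6 and pituitary markers held none of 3. Summed microglial markers ranged from 593 to 719 CPM in WT + IPTG and from 516 to 642 in LacQ140. Summed oligodendrocyte markers ranged from 13500 to 17310 CPM in WT + IPTG and from 10370 to 12990 in LacQ140, without overlap. At 12 months the counts were 9 of 10 lower for spiny projection neurons, 5 lower and 1 higher of 10 for oligodendrocytes, 6 lower and 1 higher of 10 for astrocytes, 2 of 11 lower for microglia, 5 of 8 lower for endothelial cells and pericytes, 4 of 6 lower for choroid plexus, 1 of 5 lower for interneurons, 2 of 6 higher for cortical excitatory neurons and none for the precursors or pituitary. Summed spiny projection neuron markers ranged from 7542 to 10580 CPM in WT + IPTG and from 4410 to 5518 in LacQ140. In bulk tissue, fewer cells of a type and less RNA per cell cannot be told apart, and the part of these shifts in the members' values was not tested.

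The 122 other genes of the pathway, from fixed lists that leave the members out, gave further context in the same test. At 6 months 30 passed (24.6%), 13 higher and 17 lower, against 24% of the genes at or above the lowest member's level, and 7 were called, against 7.93% of all genes. *Galns*, a sulfatase of keratan sulfate breakdown, was 0.57 higher (SE 0.09, adjusted p = 9.54e-06) and *Stx17*, a syntaxin of autophagosome fusion, 0.41 higher (adjusted p = 1.88e-07), with *Igf2r*, a sorting receptor for lysosomal enzymes, at 0.29. The called genes on the lower side were the hydrolases *Aga* (-0.31), *Ctsh* (-0.29) and *Asah1* (-0.27) and the conjugation protein gene *Atg12* (-0.29). At 12 months 31 passed (25.4%), 21 higher and 10 lower, against 29.5% of the genes at or above the lowest member's level, and 10 were called, against 9.44% of all genes. *Galns* was again highest at 0.63 (SE 0.09, adjusted p = 2.37e-08), followed by the protease *Ctsk* (0.45), *Stx17* (0.35), the sialic acid transporter *Slc17a5* (0.30), *Cln3* (0.29) and the sulfatase *Arsb* (0.29), while *Rragd*, a GTPase of nutrient signalling at the lysosome, was lower (-0.41) and so was the sorting receptor *Sort1* (-0.31).

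The genes that passed were also counted by list, and no list was tested as a set. Of the genes at or above the lowest member's level, 24% passed at 6 months and 29.5% at 12 months, both directions together. By list, the other lysosomal hydrolases had 5 of 26 higher and 6 lower at 6 months and 7 higher and 0 lower at 12 months. The V-ATPase, which acidifies the lysosome, had 4 of 18 higher and 2 lower at 6 months and 5 higher and 1 lower at 12 months. Other lysosomal membrane and sorting proteins had 2 of 18 higher and 0 lower at 6 months and 5 higher and 1 lower at 12 months. Other autophagy machinery had 1 of 30 higher and 4 lower at 6 months and 2 higher and 6 lower at 12 months. The mTORC1 and MiT list had 1 of 18 higher and 2 lower, then 0 higher and 1 lower, and other cargo receptors 0 of 12 higher and 3 lower, then 2 higher and 1 lower. The effect at 12 months against that at 6 months in striatum was tested gene by gene. Of the genes in these lists, only *Ctsk* (0.63, adjusted p = 0.0339) and *Cln3* (0.31, adjusted p = 0.0257) passed.

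In the cortex no member passed at either age. At 6 months the smallest adjusted p was that of *Naglu*, 0.214, at a log2 fold change of 0.24 (SE 0.09), the same value as in the 6-month striatum. At 12 months it was that of *Optn*, a cargo receptor, 0.124, at 0.33 (SE 0.09). In each cortex comparison 3 of 37 members had an unadjusted p under 0.05. DESeq2 called 0 members at 6 months and 1, *Optn*, at 12 months, which also passed with filterByExpr (adjusted p = 0.0469). The share of all genes called was also low in cortex, 0.881% at 6 months and 0.0899% at 12 months. *Sqstm1* stood at 0.06 (SE 0.05) and 0.09 (SE 0.07) there.

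The difference between the LacQ140 effect in striatum and that in cortex was tested directly, and no member passed at 6 months (smallest adjusted p 0.284, *Ulk1*) or at 12 months (0.198, *Tpp1*), with 5 and 2 members at an unadjusted p under 0.05. Of the genes at or above the lowest member's level, 2.12% and 9.12% passed that test. DESeq2 was not run for these tests of a difference. The tissues are therefore not shown to differ in the members, although the striatum had members past the threshold and the cortex had none. The effect at 12 months against that at 6 months did not pass for any member in striatum (smallest adjusted p 0.103, *Lamp1*) or cortex (0.309, *Optn*), with 5 and 3 at an unadjusted p under 0.05, while 4.39% and 0.0269% of the genes at or above the lowest member's level passed. *Lamp1* differed by 0.19 (SE 0.06) between the ages in striatum, from -0.11 at 6 months to 0.08 at 12 months.

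**Figure D4:**
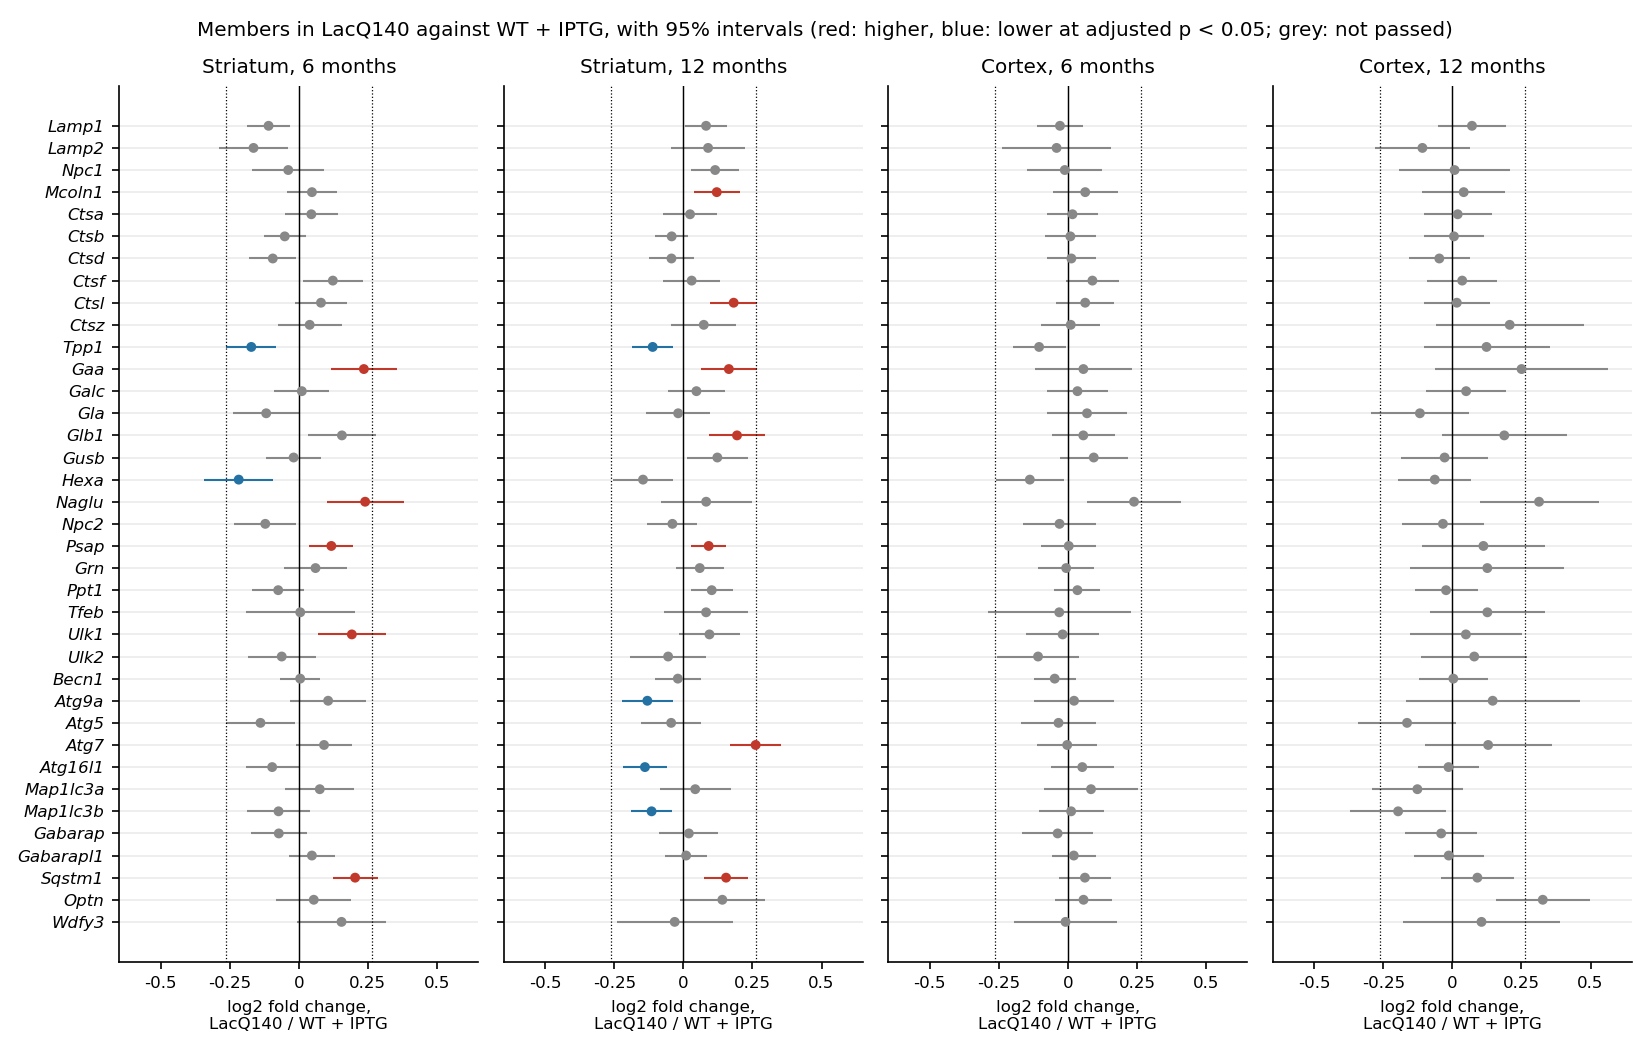
Log2 fold change of each member in LacQ140 against WT + IPTG, with 95% intervals, in 4 panels for tissue and age; dotted lines mark a change of 20%, red and blue mark members higher or lower at adjusted p under 0.05. There are 7 coloured points in 6-month striatum, 11 in 12-month striatum and none in cortex, and none of the coloured points lies beyond the dotted lines.

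IPTG alone, WT + IPTG against WT, gave no member that passed in any of the 4 tissue and age combinations, with 3 and 6 members at an unadjusted p under 0.05 in the 6- and 12-month striatum and 3 in the cortex at each age. Of the genes at or above the lowest member's level, 0% to 1.35% passed. DESeq2 called 0 in 3 of them and 1, *Naglu*, in the 12-month cortex, where *Naglu* also passed with the length slope. The closest in striatum was *Hexa* at 12 months, 0.22 higher with IPTG (SE 0.05, adjusted p = 0.0509), from medians of 52.9 CPM in WT to 58.3 in WT + IPTG, and it passed with filterByExpr (adjusted p = 0.0342) and with DESeq2 (0.0232). In the 12-month cortex, *Naglu* stood at -0.47 (SE 0.11, adjusted p = 0.168).

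The next comparisons asked whether lowering of the mutant allele moved the members, with each lowered group set against LacQ140. LacQ140 had IPTG throughout and the lowered groups had none at sampling, so lowering and the lack of IPTG cannot be told apart here. Each shares its LacQ140 libraries with the comparison of LacQ140 against WT + IPTG. *Htt* in 12-month striatum had similar medians in LacQ140_8M (112 CPM) and LacQ140 (113), in counts that do not separate the alleles. No member passed in any of the 10 comparisons (0 of 37 in each, with 0 to 6 members at an unadjusted p under 0.05). DESeq2 also called 0 in each. The share of genes at or above the lowest member's level that passed ran from 0% to 4.50%. Other fits let 1 member pass in 3 of the 10. *Tpp1* in 6-month striatum of LacQ140_A passed with filterByExpr, the length slope and DESeq2 (adjusted p from 0.0211 to 0.0331), and *Naglu* in 12-month striatum of LacQ140_2M with the length slope (0.0456). In 12-month cortex of LacQ140_A, *Tpp1* passed with only the groups compared (0.025), a fit in which 15.1% of the genes at the members' level passed, against 0.0352% with all groups in 1 fit. In striatum the 95% intervals of the members' log2 fold changes lay between -0.33 and 0.43.

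At 6 months in striatum, *Sqstm1* had medians of 442 CPM in WT, 443 in WT + IPTG, 504 in LacQ140, 468 in LacQ140_A and 479 in LacQ140_2M. Set against LacQ140, LacQ140_A stood at -0.11 (SE 0.04, adjusted p = 0.179) and LacQ140_2M at -0.10 (SE 0.04, adjusted p = 0.261), and neither passed. *Tpp1* came closest to the threshold, with medians of 64.5 CPM in LacQ140, 69.1 in LacQ140_A and 70.9 in WT + IPTG (0.14 for LacQ140_A, SE 0.05, adjusted p = 0.0921). *Gaa* had medians of 336 CPM in WT, 290 in WT + IPTG, 350 in LacQ140, 333 in LacQ140_A and 315 in LacQ140_2M, with differences from LacQ140 of -0.03 and -0.17 (adjusted p = 0.911 and 0.201). *Naglu* in LacQ140_A stood 0.04 above LacQ140 (SE 0.07). *Ulk1* had medians of 61.6 CPM in LacQ140, 56.1 in LacQ140_A and 55.9 in LacQ140_2M, and *Hexa* of 53.4, 55.2 and 54.9.

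At 12 months in striatum, *Atg7* had medians of 22.7 CPM in WT, 21.4 in WT + IPTG, 25.9 in LacQ140, 23.8 in LacQ140_A, 25.3 in LacQ140_2M and 24.9 in LacQ140_8M. *Glb1* followed with 16.1, 16.5, 18.5, 16.9, 18.4 and 17.3 CPM in the same order of groups. Against LacQ140, *Glb1* stood at -0.14 (SE 0.05, adjusted p = 0.234) in LacQ140_A, -0.04 (SE 0.05) in LacQ140_2M and -0.07 (SE 0.05) in LacQ140_8M. *Gaa* stood at -0.17 (SE 0.05, adjusted p = 0.107) in LacQ140_A, -0.08 in LacQ140_2M and -0.01 in LacQ140_8M. *Ctsl* had medians of 105 CPM in LacQ140, 101 in LacQ140_A, 98.8 in LacQ140_2M and 97.6 in LacQ140_8M, and *Sqstm1* of 528, 508, 507 and 496, with no difference that passed. *Naglu* had medians of 10.3 CPM in WT, 9.32 in WT + IPTG, 10.1 in LacQ140, 10.5 in LacQ140_A, 12.0 in LacQ140_2M and 10.9 in LacQ140_8M, and LacQ140_2M stood 0.26 above LacQ140 (SE 0.08, adjusted p = 0.155).

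Among the 122 other pathway genes, *Galns* was lower than in LacQ140 in both lowered groups at 6 months, by -0.41 (SE 0.09, adjusted p = 0.0054) in LacQ140_A and -0.41 (SE 0.09, adjusted p = 0.0077) in LacQ140_2M. *Stx17* was lower in LacQ140_A by -0.20 (adjusted p = 0.0347). Both genes were named above for high levels in the same LacQ140 libraries, so these falls are not independent of that choice. At 12 months *Mitf*, a relative of *Tfeb*, was 0.25 higher in LacQ140_A (adjusted p = 0.0399), and the V-ATPase gene *Atp6v1b2* was lower (-0.10, adjusted p = 0.0424).

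The lowered groups were also set against WT in striatum, to ask what remained. These comparisons share the WT samples, and LacQ140_2M and LacQ140_8M had IPTG before its withdrawal while WT had none. At 6 months LacQ140_A had 2 members that passed, *Atg5*, a part of the conjugation ligase, at -0.24 (SE 0.06, adjusted p = 0.0375) and *Naglu* at 0.26 (SE 0.07, adjusted p = 0.0477), and LacQ140_2M had none (0 of 37, with 6 at an unadjusted p under 0.05 and 0 called by DESeq2). Of the genes at or above the lowest member's level, 2.38% passed in LacQ140_A and 2.30% in LacQ140_2M. Without the libraries high in markers of adjacent tissue, neither *Atg5* (adjusted p = 0.13) nor *Naglu* (adjusted p = 0.147) passed. Both were also lost with only the groups compared, and *Naglu* with the replicate block. *Atg7* in 6-month LacQ140_A passed with filterByExpr (adjusted p = 0.0279) and with DESeq2 (0.0212). At 12 months LacQ140_A had 1, *Npc1*, a cholesterol exporter of the lysosome, at 0.16 (SE 0.04, adjusted p = 0.0154). LacQ140_2M had 3, *Ulk1* at 0.25 (SE 0.06, adjusted p = 0.00186), *Glb1* at 0.21 (SE 0.05, adjusted p = 0.00586) and *Atg7* at 0.16 (SE 0.05, adjusted p = 0.0276). Of the genes at or above the lowest member's level, 11.1% passed in LacQ140_A and 13.7% in LacQ140_2M at 12 months, against 2.70% and 8.11% of the members. With the slope of level on transcript length as a covariate, 4 members passed in LacQ140_A (10.8%, against 17.0% of those genes) and 10 in LacQ140_2M (27.03%, against 19.5%), so for LacQ140_2M the order of the shares turned. With the filterByExpr filter on low counts 3 and 5 passed, and with only the groups compared 1 and 5. In the same libraries, summed markers of spiny projection neurons ranged from 8581 to 9814 CPM in WT, from 5483 to 7169 in LacQ140_A and from 4396 to 6958 in LacQ140_2M, without overlap with WT, and those of oligodendrocytes from 13410 to 16690, 10870 to 18470 and 10450 to 13230 in the same order. At 6 months the spiny projection neuron sums overlapped, at 6367 to 10070 CPM in WT, 6845 to 8883 in LacQ140_A and 6626 to 7666 in LacQ140_2M. The part of these shifts in the members' values was not tested. The members named here beyond *Ulk1*, *Glb1*, *Atg7* and *Naglu* were chosen after their values were seen.

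With IPTG withdrawn at 8 months, LacQ140_8M had 5 members that passed against WT at 12 months, all of them higher, and 2 of these were called (2 of 37, 5.41%, against 7.77% of all genes tested). The 5 make 13.5% of the members, against 28.5% of the genes at or above the lowest member's level. That order turned with the slope of level on transcript length as a covariate, where 10 members passed (27.03%, against 23.0% of those genes), and 8 passed with filterByExpr (21.6%, against 35.4%). *Ulk1* ranged from 51.8 to 64.8 CPM with a median of 59.1 in WT and from 67.7 to 81.4 with a median of 73.3 in LacQ140_8M. The ranges did not overlap, and the log2 fold change was 0.31 (SE 0.06, adjusted p = 4.9e-05). *Wdfy3*, whose product Alfy brings aggregated protein to autophagosomes, ranged from 103 to 154 CPM with a median of 136 in WT and from 121.2 to 196 with a median of 174 in LacQ140_8M (0.39, SE 0.11, adjusted p = 0.00946), with overlapping ranges. *Npc1* (0.17), *Glb1* (0.18) and *Atg7* (0.16) passed without reaching 20%. Summed markers of spiny projection neurons ranged from 8581 to 9814 CPM in WT and from 4751 to 6027 in LacQ140_8M in the same libraries, and those of oligodendrocytes from 13410 to 16690 and from 10600 to 12640, both without overlap. Their part in these values was not tested.

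The transcripts of both called genes are long (4397 nt for *Ulk1* and 10560 nt for *Wdfy3*), and the slope of level on transcript length had a median of 0.384 in LacQ140_8M and 0.315 in WT. With that slope as a covariate, *Ulk1* stood at 0.20 (SE 0.04, adjusted p = 0.000302) and *Wdfy3* at 0.10 (SE 0.04, adjusted p = 0.135), so that neither was called. WT + IPTG also stood above WT for both genes at 12 months, by 0.17 for *Ulk1* (adjusted p = 0.179) and 0.22 for *Wdfy3* (adjusted p = 0.435), and neither difference passed. Against LacQ140, *Ulk1* in LacQ140_8M differed by 0.05 (SE 0.06). *Galns* remained above WT at 12 months among the other pathway genes, by 0.35 in LacQ140_A, 0.46 in LacQ140_2M and 0.45 in LacQ140_8M, and *Rragd* below it, by -0.33, -0.29 and -0.27, all past the adjusted threshold and the bound. Both genes were picked after their values were seen. Others of the pathway lists passed against WT in both directions and are not given here.

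In WT mice at 6 months, 15 of 37 members were called between striatum and cortex, 7 higher in striatum and 8 lower, and 19 passed. Of all 33399 genes tested, 32.4% were called, and 57.3% of the 10820 genes at or above the lowest member's level passed, against 51.4% of the members. *Gaa* had 256 to 358 CPM with a median of 324 in striatum and 150 to 225 with a median of 198 in cortex, without overlap (log2 difference 0.71, SE 0.08, adjusted p = 5.56e-09). *Ulk1* lay the other way, 43.3 to 64.97 CPM with a median of 54.4 in striatum and 67.5 to 98.1 with a median of 88.4 in cortex, also without overlap (-0.69, SE 0.08, adjusted p = 3.68e-08). *Map1lc3a*, an LC3 gene, was lower in striatum by -0.68 (SE 0.08). Other members with separate ranges were *Ctsa*, higher in striatum (0.45), and *Optn* (-0.50), *Glb1* (-0.50) and *Atg7* (-0.44), lower in striatum. *Tfeb* (0.51), *Ctsz* (0.46), *Npc1* (0.36), *Npc2* (0.34) and *Atg16l1* (0.28) completed the higher side, and *Ulk2* (-0.48), *Gla* (-0.39) and *Wdfy3* (-0.29) the lower. Cell type markers differed between the same libraries. Summed oligodendrocyte markers ranged from 11320 to 16230 CPM in striatum and from 6241 to 8057 in cortex, and all 10 passed as higher in striatum. Summed astrocyte markers ranged from 4494 to 5162 CPM in striatum and from 5543 to 7800 in cortex, with 9 of 10 lower in striatum, and those of endothelial cells and pericytes from 315 to 414 and from 416 to 544, with 7 of 8 lower. Microglial sums overlapped, at 521 to 692 and 462 to 613 CPM. The part of these differences in the members' values was not tested.

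At 12 months 28 of 37 members were called, 13 higher in striatum and 15 lower, against 53.9% of all genes, and 32 passed (86.5%), against 88.6% of the genes at their level. Of the 14 members called at both ages, 8 kept their direction and 6 turned it (*Atg16l1*, *Atg7*, *Npc2*, *Ulk1*, *Ulk2* and *Wdfy3*). The 12-month cortex libraries are the ones that stood apart in transcript length. Across the 37 members, the correlation of transcript length with the difference between tissues (Spearman's rho across genes, which are not independent replicates) was -0.02 at 6 months and 0.52 at 12 months. Members called higher in striatum at 12 months had a median transcript length of 3363 nt and those called lower one of 2038 nt, and all 4 Atg8 genes, which have short transcripts, were on the lower side (*Map1lc3a* -2.09, *Map1lc3b* -1.78, *Gabarap* -1.03, *Gabarapl1* -0.72). Cell type markers also differed between these libraries. Summed oligodendrocyte markers ranged from 12090 to 15190 CPM in striatum and from 7358 to 11610 in cortex, those of oligodendrocyte precursors from 114.9 to 137 and from 19.7 to 47.96, and those of interneurons from 293 to 385 and from 840 to 1089. Endothelial and pericyte sums ranged from 291 to 342 CPM in striatum and from 152 to 235 in cortex, higher in striatum where at 6 months they were lower. The part of these differences in the members' values was not tested. The tissue and whatever set these libraries apart cannot be told apart at 12 months. *Gaa* (2.32), *Npc1* (2.06), *Tfeb* (1.02), *Ctsz* (1.04) and *Ctsa* (0.30) were higher in striatum at both ages, and *Map1lc3a*, *Gla* and *Optn* lower.

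**Figure D5:**
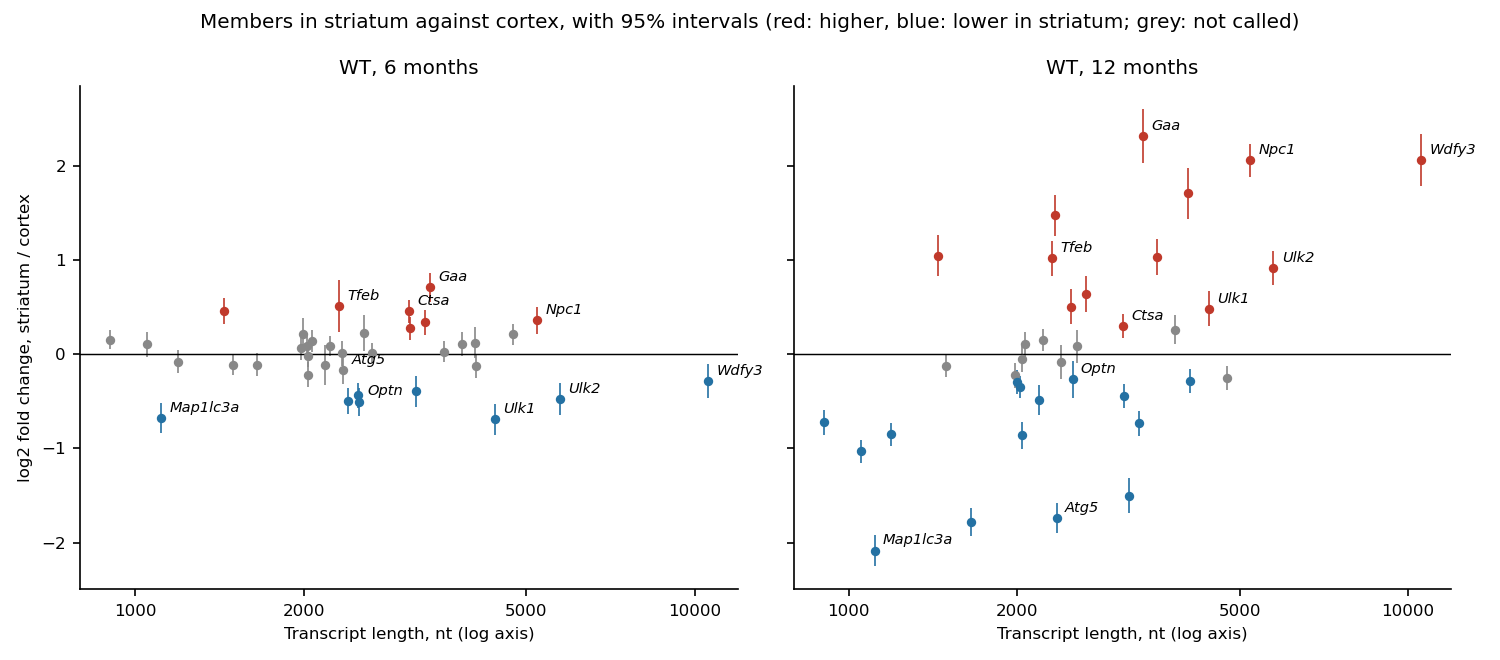
Log2 fold change, striatum over cortex, in WT mice for each member with its 95% interval, against transcript length in nt on a log axis, at 6 months (left) and 12 months (right); red and blue mark members called higher or lower in striatum and grey those not called. The spread is wider at 12 months (from -2.09 for Map1lc3a to 2.32 for Gaa) than at 6 months (from -0.69 for Ulk1 to 0.71 for Gaa), and 6 of the 14 members called at both ages turned direction.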

How the data were processed

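Libraries were made from total RNA of striatum and cortex, extracted with a Qiagen kit, and sequenced as 100-base paired-end reads on an Illumina NovaSeq. The authors deposited expected counts per Ensembl gene for each library, on GRCm38 per the submitters' processing notes. The quantifier, its strand setting and the annotation are not given in the sources used here. Expected counts were rounded to whole numbers, gene symbols were taken from GENCODE vM21 (54495 of 54532 identifiers matched), and genes with at least 1 count in a tissue and age entered the quasi-likelihood fit of edgeR 4.0.16 in R 4.3.3, with TMM scaling, with all groups of a tissue and age in 1 fit and Benjamini-Hochberg adjustment over all genes. A gene passed at an adjusted p under 0.05 and was called when it also changed by at least 20%. The standard error is the absolute log2 fold change over the square root of F, and intervals are 95% normal intervals. Striatum and cortex were compared in fits of both tissues. Replicates are separate mice.

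Levels are TMM-scaled CPM, divided by the length of the annotated transcript only where genes are compared. No 2 libraries of a group were identical, and the lowest chi-square per degree of freedom between libraries of a group was 7.29. Same-mouse striatum and cortex deviated together, with a median correlation of 0.272 at 6 months (over 0.1 in 39 of 50 mice) and 0.210 at 12 months (39 of 57), against -0.043 and -0.019 between other mice of a group. The fit with the mouse as a block called 15 and 29 members.

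Alternatives were DESeq2 1.42.0 (its Wald test, or its size factors in edgeR), no fold bound, edgeR's filterByExpr, sex or the length slope as a covariate, a block of the replicate number, only the groups compared, each library left out in turn, and, chosen after seeing the data, a fit without the libraries high in markers of adjacent tissue. The members, the pathway lists and the marker lists were chosen with earlier results of these data known. By a rule, the 5 members with the largest absolute log2 fold change in LacQ140 striatum at each age were given with values by group. All others with values, among them *Tpp1*, *Atg16l1* and *Wdfy3*, were named after their values were seen. The edgeR script was tested on simulated counts. Figures were drawn with matplotlib 3.10.9.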

Additional observations from a re-analysis of the deposited data

Results flagged for a closer look

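A single library that stood apart was looked for in 17 members over the 11 striatum groups, 187 combinations in all, by the gap to the nearest library against the range of the group. Chance flags about 1 in 20, and 8 were found. At 6 months *Sqstm1* was 589 CPM in LacQ140 F5, with the next library at 526, *Atg9a* was 166 CPM in LacQ140_A F4 (next 134), and *Glb1* was 14.2 CPM in LacQ140_2M M1 (next 16.4). At 12 months *Atg16l1* was 54.2 CPM in LacQ140_8M F2 (next 59.4), *Atg5* was 15.6 CPM in WT + IPTG M5 (next 18.7), *Wdfy3* was 121.2 CPM in LacQ140_8M F5 (next 159), *Atg7* was 18.8 CPM in WT + IPTG F4 (next 20.8), and *Mcoln1* was 51.9 CPM in WT F5 (next 49.2). No library appears more than once in this list.

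In WT mice 6 members were higher in striatum than in cortex in every mouse at one age and lower in every mouse at the other. This difference between the ages was not tested. The mean log2 difference, striatum minus cortex, at 6 and 12 months was 0.21 and -0.26 for *Hexa*, 0.34 and -0.70 for *Npc2*, -0.68 and 0.46 for *Ulk1*, -0.42 and 0.49 for *Atg7*, 0.28 and -0.45 for *Atg16l1*, and 0.15 and -0.72 for *Gabarapl1*. The 12-month values rest on the cortex libraries that stand apart in transcript length.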

How the results depend on the processing

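With no fold bound the members counted were 7 and 11 for LacQ140 against WT + IPTG in striatum at 6 and 12 months, 2 and 1 for LacQ140_A against WT at those ages, 3 for LacQ140_2M and 5 for LacQ140_8M against WT at 12 months. A single member (1 in place of 0) was called in these cases: *Naglu* (0.26) in 6-month LacQ140 striatum without the libraries high in markers of adjacent tissue; *Naglu* in LacQ140_A against WT at 6 months with filterByExpr, DESeq2 size factors, the length slope or DESeq2; *Atg7* in 12-month LacQ140 striatum with filterByExpr, sex or the replicate block; *Naglu* (0.28) in 12-month striatum of LacQ140_2M against LacQ140 with the length slope; *Naglu* (-0.46 and -0.47) for IPTG in 12-month cortex with the length slope or DESeq2; *Optn* (0.33 and 0.32) in 12-month LacQ140 cortex with filterByExpr or DESeq2; and *Tpp1* (-0.32) in 12-month cortex of LacQ140_A against LacQ140 with only the groups compared. LacQ140_8M against WT called 0 in place of 2 with the length slope. The cause of these moves was not tested. Leaving out each library in turn gave 0 to 1 members called in LacQ140 striatum at each age (*Gaa* without WT + IPTG M4 at 6 months, *Atg7* at 12 months without any 1 of LacQ140 F4, M3, M4 and M5 and WT + IPTG F3, F5 and M1) and 0 to 0 in cortex, with 5 to 8 and 7 to 11 members passing in striatum. No direction reversed.

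*Sqstm1*, *Naglu*, *Gaa*, *Tpp1* and *Hexa* at 6 months and *Atg7*, *Glb1*, *Ctsl*, *Atg16l1* and *Sqstm1* at 12 months passed under every alternative fit and with each library left out. *Psap* and *Ulk1* at 6 months and *Atg9a*, *Psap*, *Gaa*, *Tpp1*, *Mcoln1* and *Map1lc3b* at 12 months did not. Replicate numbers are those of different mice in each group: the median correlation of same-numbered libraries was 0.052 to 0.114, with negative values in each tissue and age, and 4 to 14 libraries per tissue and age correlated best with their own number. In fits within a tissue, the replicate block changed no other call. The standard error had a median of 0.06 in 6-month and 0.05 in 12-month striatum and 0.09 in 12-month cortex.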
